A study of Homo sapiens with 8 samples.

Results

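Panc.05.04 is an established human cell line of pancreatic ductal adenocarcinoma (PDA), the common cancer of the exocrine pancreas. Its RNA was compared here with that of 3 other PDA lines, Panc.8, HPAF-II and Panc.10.05. Each line was transfected either with a control small interfering RNA (siRNA) or with one that targets PDX1, which encodes a homeobox protein of the pancreas, and RNA was taken 3 days later. There was 1 library per line and siRNA, so Panc.05.04 gave 2 of the 8 libraries and the other lines gave 6. All 8 libraries come from transfected cells, and none is from an untransfected culture. The control siRNA libraries are the reference only for the siRNA effect, which is not the subject here; the question is how Panc.05.04 differs as a line. A gene was counted as above, or below, when both Panc.05.04 libraries were higher, or lower, than all 6 libraries of the other lines. Levels are FPKM, the fragments of a gene divided by its length and by the size of the library, and differences were taken on log2(FPKM + 1), which understates differences of genes with low FPKM. Where 2 values are given for a line, the control siRNA library stands first and the PDX1 siRNA library second.

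Ductal cancer cells usually keep the program of a simple epithelium. Keratin filaments made of a type I and a type II keratin support the cell, E-cadherin and claudins join it to its neighbours, and transcription and splicing factors such as EHF, GRHL2 and ESRP1 keep these genes in their epithelial form. In an epithelial-mesenchymal transition, factors such as ZEB1 repress E-cadherin through E-box motifs in its promoter, and the filament protein vimentin takes the place of part of the keratins. Lines of PDA range from classical ones, with gut-like secretory genes, through basal-like ones, with squamous keratins, to poorly differentiated ones.

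The 4 tables held the same 28520 rows, and the 12109 rows with a mean of at least 1 FPKM over the 8 libraries were tested. The summed FPKM ran from 371329 to 428778 per library, and both Panc.05.04 libraries, at 378463 and 371329, were the lowest. Between 11186 and 11477 rows per library reached 1 FPKM. The depth in reads is unknown, since no counts were used, and nothing in the sources used here says if the 4 tables share a scaling. PDX1, the target of the siRNA, had 1.41 and 0.416 FPKM in Panc.05.04, 0.914 and 0.372 FPKM in Panc.8, 9.61 and 5.37 FPKM in HPAF-II and 0.188 and 0.0998 FPKM in Panc.10.05, so the level was lower with its siRNA in each line. Panc.05.04 lay between the other lines for this gene. The 2 Panc.05.04 libraries were alike: across the tested rows they correlated at 0.986 (Pearson, on log2 values), against 0.966 to 0.992 within the other lines.

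The labels call all 8 libraries PDA tumor cells, and the ductal markers did not bear this out evenly for Panc.05.04. Of 13 tested ductal epithelial genes, 9 were below all 6 other libraries, 0 were above, and 4 lay between, where 22.5% of all tested rows were below and 17.5% above. The summed level of the list was 859.8 to 1028 FPKM in Panc.05.04 and 4586 to 7324 FPKM in the others. The defining ductal keratins KRT19 and KRT7 were near 0, while KRT8, KRT18, MUC1 and EPCAM were clearly present. In bulk RNA, fewer cells with a gene and less RNA of it per cell cannot be told apart. Markers of other cell types were low for the most part. Of 13 fibroblast and stellate cell markers, 12 were under 0.5 FPKM in both Panc.05.04 libraries, with THY1, POSTN and PDGFRB at 0. The remaining marker, ACTA2, was above all 6 others, at 4.31 and 3.44 FPKM against 0.553 to 2.05 FPKM. The sum of the 13 markers was 4.54 to 5.88 FPKM against 2.51 to 8.87 FPKM in the others. All 14 acinar markers found were under 0.5 FPKM. Of 10 endothelial markers, 9 were under 0.5 FPKM, and the sum of 28.8 to 30.5 FPKM, against 3.24 to 17.7 FPKM, came almost wholly from ESAM, a junction protein, at 30.3 and 28.4 FPKM. Of 18 immune markers, 14 were under 0.5 FPKM, and their sum was 10.3 to 24.1 FPKM, mostly the lysosomal protein CD68, against 11.99 to 1672 FPKM. Of 11 endocrine markers, 9 were under 0.5 FPKM in Panc.05.04, where the secretory granule protein CHGB was at 2.38 and 1.22 FPKM, and their sum was 1.69 to 3.20 FPKM against 0.237 to 1.09 FPKM, above every other library. Whether the cells match the named line was not tested.

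Of the 12109 tested rows, 2124 (17.5%) were above and 2730 (22.5%) below all 6 other libraries. By a gap of at least 1 on the log2 scale, 442 (3.65%) were above and 503 (4.15%) below. Among the rows on either side, 43.8% were thus above, and this share was 51.2% with all libraries scaled to the same sum and 55.2% after quantile normalization, so the balance of higher against lower rows depends on the scaling. The median difference over all tested rows was -0.08 as reported, 0.01 with the same sum and 0.05 after quantile normalization. Treating the line as the unit, with the 2 libraries of a line averaged and the spread of the 3 other lines as the error, limma called 0 rows higher (0%) and 0 lower (0%) at an adjusted p under 0.05. At an unadjusted p under 0.05, limma passed 490 rows higher and 562 lower, 1052 in all, where 5% of the rows tested would be 605.5. The smallest adjusted p was 0.0931, shared by KRT19, KRT7, S100A14, EHF and DHRS3. A limma fit on the 8 libraries, with line and siRNA as terms, called 3397 rows higher (28.1%) and 4397 lower (36.3%), but its error is the spread between 2 libraries of the same line and says nothing of how much lines vary. Above and below are used below as descriptions of these 8 libraries.

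**Figure D1:**
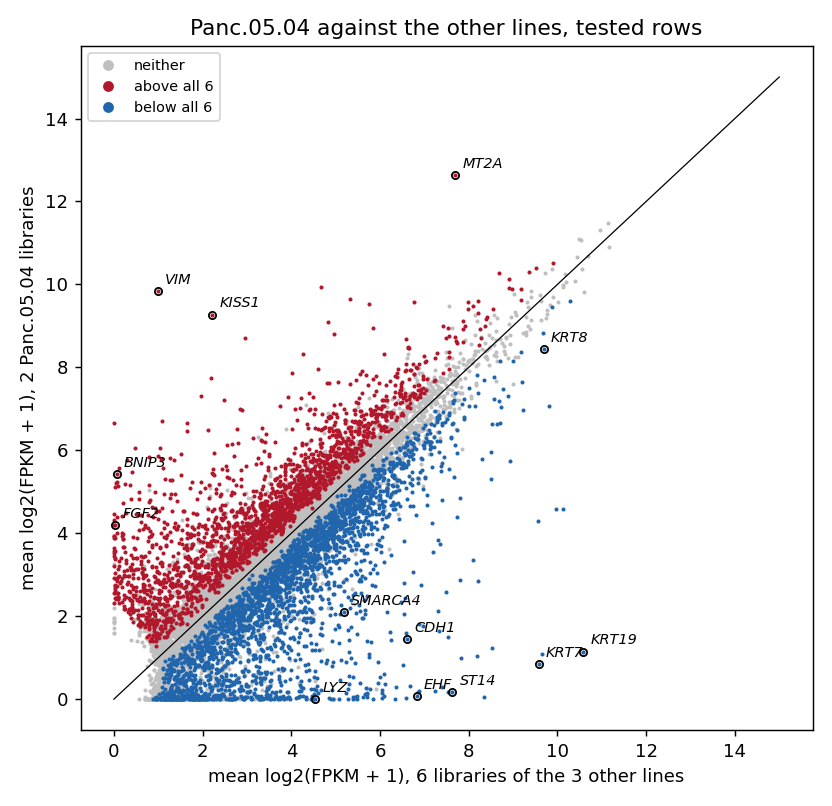
Mean log2(FPKM + 1) of the 2 Panc.05.04 libraries (vertical) against the mean of the 6 libraries of the other lines (horizontal), 1 point per tested row, with 1 row not drawn. Red points were above and blue points below all 6 others, and the line marks equality. KRT19 and KRT7 sit at the far right near the bottom, and VIM at the far left near the top.

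The rule is a sharp one, and members near its edge hardly differ. The closest member inside on the upper side was RRAGC, a Rag GTPase, at 18.2 and 18.8 FPKM in Panc.05.04 and 18.22 FPKM in the highest other library. Just inside on the lower side, the gene SSBP2 had 0.755 and 0.872 FPKM, and 0.872 FPKM in the lowest other library. Just outside on the upper side was SCARNA18, listed at 0 in 1 of the 2 Panc.05.04 libraries and in all 6 others.

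Panc.05.04 had the largest number of genes that were almost silent in it and expressed in every other line. In all, 37 rows, 36 of them protein-coding, were under 0.5 FPKM in both its libraries and at 10 FPKM or more in all 6 others. The same count was 4 for Panc.8, 7 for HPAF-II and 5 for Panc.10.05. In the reverse direction, 26 rows were at 10 FPKM or more in Panc.05.04 and under 0.5 FPKM in all 6 others, against 45 for Panc.8, 40 for HPAF-II and 5 for Panc.10.05. With the gap of at least 1, Panc.05.04 had 503 rows below the rest, and Panc.8, HPAF-II and Panc.10.05 had 168, 260 and 122. By the same gap 442 rows were above in Panc.05.04, 389 in Panc.8, 524 in HPAF-II and 155 in Panc.10.05. Its line mean correlated with that of Panc.10.05 at 0.783, with Panc.8 at 0.736 and with HPAF-II at 0.678 across the 12109 rows, while the 3 pairs of other lines ran from 0.760 to 0.807. These are descriptions across genes that share their libraries, with no test.

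The 2 keratins of ducts were among the genes furthest below. KRT19, the type I keratin of pancreatic ducts, had 1.55 and 0.921 FPKM in Panc.05.04, 1743 and 1521 FPKM in Panc.8, 1207 and 1094 FPKM in HPAF-II and 1758 and 2107 FPKM in Panc.10.05. The groups were far apart, with a log2 difference of -9.44 ± 0.49 (SE), where SE is the standard error from limma over the 4 line means, and a limma adjusted p of 0.0931. KRT7, a type II keratin of ducts, had 0.868 and 0.709 FPKM in Panc.05.04, 949 and 1039 FPKM in Panc.8, 540.2 and 572 FPKM in HPAF-II and 890.2 and 736 FPKM in Panc.10.05, a difference of -8.74 ± 0.50 (SE). The keratins found in all simple epithelia were present. KRT18 had 393 and 494 FPKM, inside the 314 to 1269 FPKM of the other lines. Its type II partner KRT8 had 305 and 394 FPKM, slightly below the 437 to 1641 FPKM of the others. The squamous keratins KRT5, KRT6A and KRT4 were under 0.1 FPKM in Panc.05.04 and high only in Panc.8, where KRT5 reached 1368 and 928 FPKM. Over 14 tested keratins, 5 were below all 6 others and 1 (KRT10, an epidermal keratin) was above, where 22.5% and 17.5% of all rows were. The median difference was -1.87, against -0.08 over all tested rows. It depended on the line, with -4.72 against Panc.8, -0.42 against HPAF-II and -1.69 against Panc.10.05.

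Genes of cell-cell junctions and of the epithelial splicing program were mostly below. Of 36 tested members, 22 were below all 6 others and 1 was above, where 22.5% and 17.5% of all rows were, and the median difference was -2.24. CDH1, which encodes E-cadherin, had 1.395 and 2.12 FPKM in Panc.05.04 and 76.9 to 112 FPKM in the others, a difference of -5.16 ± 0.41 (SE). The tight junction claudin CLDN4 had 1.49 and 1.19 FPKM against 119 to 722 FPKM, and CLDN7 had 1.297 and 0.708 FPKM against 118 to 380.3 FPKM. Both are among the 20 protein-coding genes with the largest gap below, so their lack of overlap follows from that rank. ESRP1, which directs epithelial splicing, had 0.3395 and 0.585 FPKM against 52.8 to 82.5 FPKM, and its relative ESRP2 had 0.125 and 0.129 FPKM against 10.2 to 18.7 FPKM. GRHL2, a grainyhead factor that maintains epithelial enhancers, had 0.0179 and 0 FPKM against 9.73 to 23.5 FPKM. RAB25, a GTPase of apical recycling in epithelia, had 0.0544 and 0 FPKM against 66.9 to 145 FPKM. ST14, which encodes the membrane protease matriptase, had 0.118 and 0.136 FPKM against 92.3 to 492 FPKM, and its inhibitor SPINT1 had 1.83 and 2.44 FPKM against 91.7 to 220.3 FPKM. The second inhibitor, SPINT2, was not low, with 696 and 599 FPKM against 437 to 684 FPKM. CLDN1 was the member above all 6, with 219.7 and 236 FPKM against 9.95 to 136 FPKM. Desmosomal genes were split: desmoplakin, DSP, had 49.96 and 52.3 FPKM inside the range of 19 to 88.7 FPKM, DSG2 had 141 and 139 FPKM inside 57.1 to 195 FPKM, and plakoglobin, JUP, had 22.3 and 18.1 FPKM, below the 198 to 219.8 FPKM of the others. EPCAM, an epithelial adhesion molecule, was lower but present, at 31.96 and 47.2 FPKM against 97.98 to 990.1 FPKM.

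Among the 20 protein-coding genes with the largest gap below, several more are known from epithelia. S100A14, a calcium-binding protein, had 0.309 and 0 FPKM in Panc.05.04, 148 and 128 FPKM in Panc.8, 154 and 120.2 FPKM in HPAF-II and 152 and 212 FPKM in Panc.10.05. EHF, an ETS factor of epithelia, had 0.0602 and 0.0527 FPKM in Panc.05.04 and 84.2 to 128 FPKM in the others, with a difference of -6.74 ± 0.40 (SE). SCNN1A, a subunit of the epithelial sodium channel, had 0.1701 and 0.101 FPKM against 86.8 to 157 FPKM. The group also held MAL2, a protein of apical transport, with 0.755 and 1.39 FPKM against 131 to 663 FPKM, and LAD1, a basement membrane protein, with 0.0541 and 0.0425 FPKM against 32.01 to 119.9 FPKM. GALNT3, which starts mucin-type O-glycans, had 0.214 and 0.188 FPKM against 37.9 to 68.3 FPKM. HS3ST1, a heparan sulfate sulfotransferase, had 0.0788 and 0.236 FPKM against 91.5 to 157 FPKM. DHRS3, which reduces retinaldehyde to retinol, had 0.289 and 0.212 FPKM against 58.1 to 148 FPKM. CEACAM6, a cell surface adhesion molecule of PDA, had 0.0331 and 0.0411 FPKM against 38.2 to 1115 FPKM. TMEM30B, a flippase subunit, had 0.182 and 0.458 FPKM against 43.4 to 89.4 FPKM, and SMIM22, a small membrane protein, was listed at 0 in both Panc.05.04 libraries and at 27.4 to 69.7 FPKM elsewhere. These genes were chosen by their gap, so their lack of overlap with any other line follows from the choice.

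Mesenchymal genes were the converse, but only in part. VIM, which encodes vimentin, had 1080.0 and 768 FPKM in Panc.05.04, 3.48 and 2.31 FPKM in Panc.8, 0.319 and 0.3297 FPKM in HPAF-II and 0.736 and 0.393 FPKM in Panc.10.05. The groups did not come close, and the difference was 8.84 ± 0.78 (SE), with a limma adjusted p of 0.138. ZEB1, a repressor of CDH1, had 8.34 and 7.07 FPKM against 0.0251 to 0.756 FPKM. LOXL2 and LOX, which cross-link collagen, had 100.1 and 107 FPKM and 22.3 and 17.7 FPKM, against 0.138 to 2.66 FPKM and 0.0343 to 2.96 FPKM. PMP22, a myelin and membrane protein, had 46.6 and 32.4 FPKM against 0 to 7.49 FPKM, and FSTL1, a secreted glycoprotein of mesenchyme, had 157 and 152 FPKM against 1.97 to 63.5 FPKM. SNAI2, another repressor of CDH1, went the other way, with 0.342 and 0.165 FPKM against 1.71 to 52.8 FPKM. FN1, fibronectin, had 1.33 and 1.27 FPKM against 4.16 to 15.1 FPKM, and S100A4 had 24.5 and 22.3 FPKM against 26.3 to 55.99 FPKM, both below. Of 40 mesenchymal genes found, 19 were under 0.5 FPKM in both Panc.05.04 libraries, and 23 were tested. Of these 23, 10 were above all 6 and 4 below, where 17.5% and 22.5% of all rows were. The median difference was 1.38 (0.82 without HPAF-II). The filter used the mean of all 8 libraries, so a gene such as ZEB1 was tested only through its Panc.05.04 values. For such genes, being above follows from how they entered. The fibroblast collagens COL1A1, COL1A2 and COL3A1 were under 0.5 FPKM in both Panc.05.04 libraries, while ACTA2, given above, was above all 6 others. The part of other cells in the mesenchymal values was not tested beyond these markers.

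**Figure D2:**
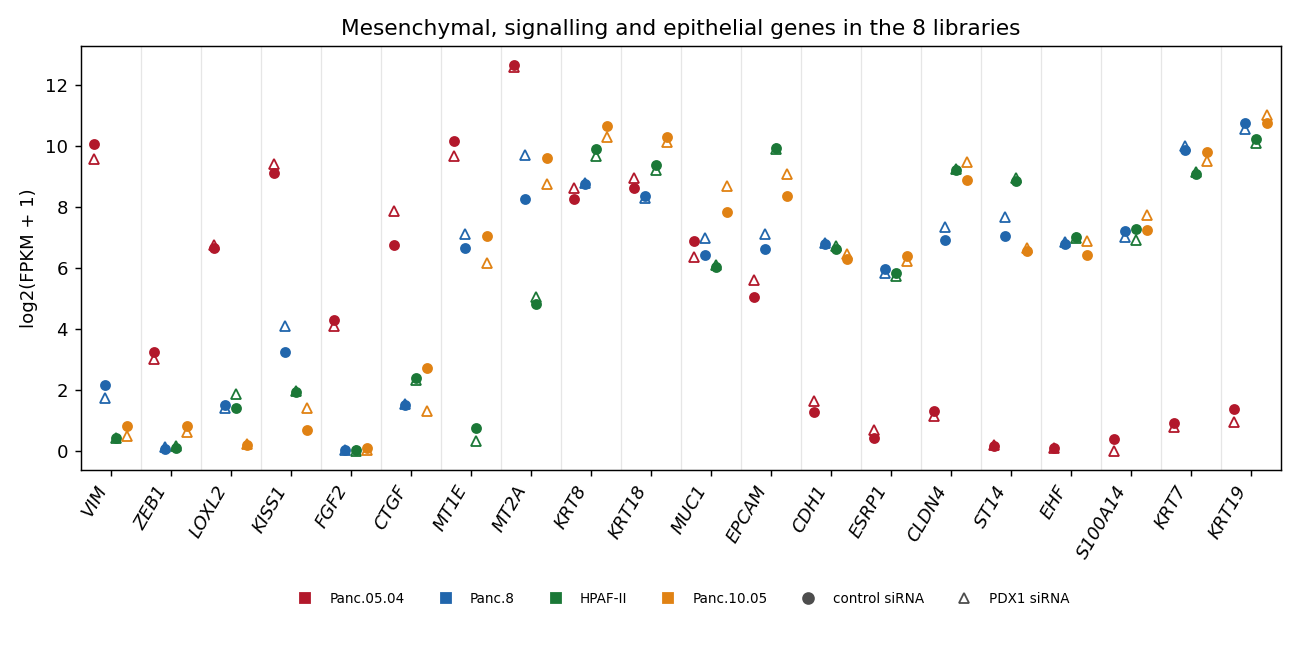
Level of 20 genes in the 8 libraries, as log2(FPKM + 1). Colours mark the line, filled circles the control siRNA library and open triangles the PDX1 siRNA library. Panc.05.04 lies apart at the top from VIM to MT2A and at the bottom from CDH1 to KRT19, and is close to the others for KRT8, KRT18 and MUC1.

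Several other genes with the largest gap above encode secreted or membrane proteins. KISS1, the kisspeptin precursor first known as a metastasis suppressor, had 563 and 679 FPKM in Panc.05.04, 8.44 and 16.01 FPKM in Panc.8, 2.76 and 2.88 FPKM in HPAF-II and 0.598 and 1.66 FPKM in Panc.10.05. BNIP3, a mitophagy receptor that hypoxia induces in many cells, had 40.6 and 43.7 FPKM and at most 0.0816 FPKM elsewhere. RBP7, a retinoid-binding protein, had 41.8 and 51.2 FPKM and at most 0.122 FPKM elsewhere. BST1, an ectoenzyme also called CD157, had 65.2 and 43.5 FPKM against 0 to 0.497 FPKM. DKK3, a secreted protein of the Dickkopf family, had 46.5 and 28.02 FPKM against 0 to 0.102 FPKM, and PCSK1N, an inhibitor of a prohormone convertase, had 38.4 and 30.3 FPKM against 0 to 0.244 FPKM. MRC2, a receptor that takes up collagen, had 42.4 and 29.3 FPKM against 0.0734 to 0.536 FPKM. QPRT, an enzyme of NAD synthesis, had 34.7 and 34.8 FPKM against 0.0858 to 0.503 FPKM. FGF2 and its receptor FGFR1 were both in the set of 20. FGF2 had 18.4 and 16.2 FPKM against 0 to 0.05002 FPKM, and FGFR1 had 56.4 and 55.4 FPKM against 0.0562 to 2.37 FPKM. Both were chosen by their gap, so their distance from the other lines follows from the choice. The set also held HDGFRP3 at 34.97 and 32.6 FPKM, TRIML2 at 31.9 and 41.6 FPKM, NRN1 at 18.8 and 19.2 FPKM, SYDE1 at 43.3 and 43.04 FPKM, MYEF2 at 24.4 and 27.01 FPKM and the LIM-domain gene FHL1 at 230.0 and 198 FPKM, the last against 0.818 to 11.96 FPKM. Long noncoding RNAs were found on both sides. TM4SF19-AS1 had 50.4 and 42.4 FPKM against 0.885 to 1.56 FPKM, while LINC01234 had 0.0207 and 0.0511 FPKM against 5.79 to 7.75 FPKM and UCA1 had 0.282 and 0.1901 FPKM against 4.26 to 1489 FPKM.

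The promoters of 5 of these genes, as RefSeq annotates them on GRCh38.p14, show what lies around the starts of the most divergent genes. Each runs 5′ to 3′ on the gene's strand, from 250 bases before to 50 bases after the start. VIM, BNIP3 and RBP7 were the first 3 genes above, and S100A14 and EHF the first 2 below, that had an entry and met the limits on what is shown. Capitals mark the E-box CAGGTG, the core that ZEB and SNAI repressors bind, and the TATA box TATAAA, each on either strand.
VIM promoter, chr10:17227991-17228290, + strand: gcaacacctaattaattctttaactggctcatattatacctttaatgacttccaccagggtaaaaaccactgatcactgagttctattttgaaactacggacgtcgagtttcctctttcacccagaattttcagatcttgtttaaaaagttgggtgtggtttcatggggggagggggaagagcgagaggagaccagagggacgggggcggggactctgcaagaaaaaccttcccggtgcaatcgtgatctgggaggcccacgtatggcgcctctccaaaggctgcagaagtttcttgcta
BNIP3 promoter, chr10:131981874-131982173, − strand: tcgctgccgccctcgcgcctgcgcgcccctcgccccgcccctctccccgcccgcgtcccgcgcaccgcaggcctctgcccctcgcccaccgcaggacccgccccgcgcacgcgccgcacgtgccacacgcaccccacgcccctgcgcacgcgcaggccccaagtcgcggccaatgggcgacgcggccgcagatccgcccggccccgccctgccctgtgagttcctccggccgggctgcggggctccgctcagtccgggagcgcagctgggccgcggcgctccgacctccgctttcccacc
RBP7 promoter, chr1:9996978-9997277, + strand: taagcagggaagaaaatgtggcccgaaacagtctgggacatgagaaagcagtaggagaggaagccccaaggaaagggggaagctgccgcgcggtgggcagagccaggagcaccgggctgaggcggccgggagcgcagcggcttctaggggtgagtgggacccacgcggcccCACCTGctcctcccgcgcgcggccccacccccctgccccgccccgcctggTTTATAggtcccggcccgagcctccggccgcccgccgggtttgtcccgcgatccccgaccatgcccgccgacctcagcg
S100A14 promoter, chr1:153616276-153616575, − strand: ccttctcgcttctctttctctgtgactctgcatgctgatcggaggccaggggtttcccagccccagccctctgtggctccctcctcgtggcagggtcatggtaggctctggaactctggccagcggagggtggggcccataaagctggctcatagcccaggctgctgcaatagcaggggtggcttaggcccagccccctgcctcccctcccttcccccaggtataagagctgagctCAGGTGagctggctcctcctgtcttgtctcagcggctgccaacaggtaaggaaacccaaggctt
EHF promoter, chr11:34624007-34624306, + strand: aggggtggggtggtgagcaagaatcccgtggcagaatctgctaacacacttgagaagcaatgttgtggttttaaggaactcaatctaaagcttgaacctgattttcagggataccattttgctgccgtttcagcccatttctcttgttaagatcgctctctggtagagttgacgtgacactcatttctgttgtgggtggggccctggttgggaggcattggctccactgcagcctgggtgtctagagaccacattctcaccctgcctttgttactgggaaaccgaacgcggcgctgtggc
RBP7 has 1 E-box and 1 TATA box, S100A14 has 1 E-box, and the windows of VIM, BNIP3 and EHF hold neither. The windows also differ in CG dinucleotides, with 48 in BNIP3, 29 in RBP7, 10 in VIM, 8 in EHF and 5 in S100A14. Over sets of promoters, the E-box was in 29.5% of the 363 matched promoters of the rows below by a gap of at least 1. It was in 17.9% of the 329 matched promoters of the rows above by that gap, 18.6% of the 9505 of all tested rows and 20.6% of all 27305 promoters of the table. The AP-1 motif TGACTCA was in 5.17% of the promoters above, 4.41% of those below and 3.21% of those tested (4.92% of the whole table). The TEAD motif GGAATG was in 10.3%, 11.8% and 10.6%, and in 14% of the whole table, and TATAAA was in 8.51%, 8.26% and 5.61%, and in 12% of the whole table. The median number of CG dinucleotides was 26 over tested rows, 28 in the rows above, 18 in the rows below and 13.5 in the 26 matched promoters of the rows that were silent in Panc.05.04. None of the 4 motifs lies within another, and a match is a description of letters, not of binding.

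Transcription factors of endoderm and pancreas had a negative median against each line. Of 26 tested factors, 11 were below all 6 others and 1 was above, where 22.5% and 17.5% of all rows were. Their median difference was -1.54. FOXA2, a pioneer factor of endoderm, had 0.0615 and 0.106 FPKM against 1.73 to 15.7 FPKM. SOX9, a ductal and progenitor factor, had 4.54 and 4.42 FPKM against 19.4 to 62.9 FPKM, and GATA6, which marks classical PDA, had 2.07 and 2.66 FPKM against 3.74 to 29.9 FPKM. KLF5 had 8.44 and 6.36 FPKM against 23.5 to 279 FPKM, and ELF3 had 3.64 and 1.51 FPKM against 49.9 to 256 FPKM. GATA4 was the member above, with 7.65 and 7.92 FPKM in Panc.05.04 and 0 to 0.915 FPKM in the others. FOXL2, a forkhead factor best known from the ovary, was in no list and was 1 of the 26 rows given above that reached 10 FPKM only in Panc.05.04, with 12.9 and 15.6 FPKM and 0 FPKM in all 6 others.

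Neither PDA subtype list was high in Panc.05.04. Of 20 tested classical genes, 9 were below all 6 and 0 above, where 22.5% and 17.5% of all rows were. Their median difference was -2.51, and their sum was 1.003 to 1.06 FPKM against 107.3 to 4527 FPKM. The median was -4.41 against HPAF-II, -3.00 against Panc.8 and -0.07 against Panc.10.05, so Panc.10.05 had low levels of many of them too. AGR2, a protein of secretory cells, was listed at 0 in Panc.05.04 and had 0.982 to 298 FPKM in the others. CEACAM5, a carcinoembryonic antigen, was listed at 0 against 0.01902 to 487 FPKM, and LYZ, lysozyme, at 0 against 0.505 to 1591 FPKM. Of 28 tested basal-like genes, 11 were below and 0 above, with a median of -2.80. That median was -4.73 against Panc.8, but -1.27 against HPAF-II and -0.88 against Panc.10.05. SCEL, a protein of the cornified envelope, had 0.0128 and 0.0316 FPKM against 17.1 to 39.8 FPKM, and TP63, the master factor of squamous cells, had 0.0109 and 0.0135 FPKM against 0.185 to 69.2 FPKM. Of 11 tested mucins and gut glycoproteins, 6 were below and 0 above, with a median of -1.93, while MUC1 had 117 and 81.3 FPKM, within 64.5 to 413 FPKM.

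**Figure D3:**
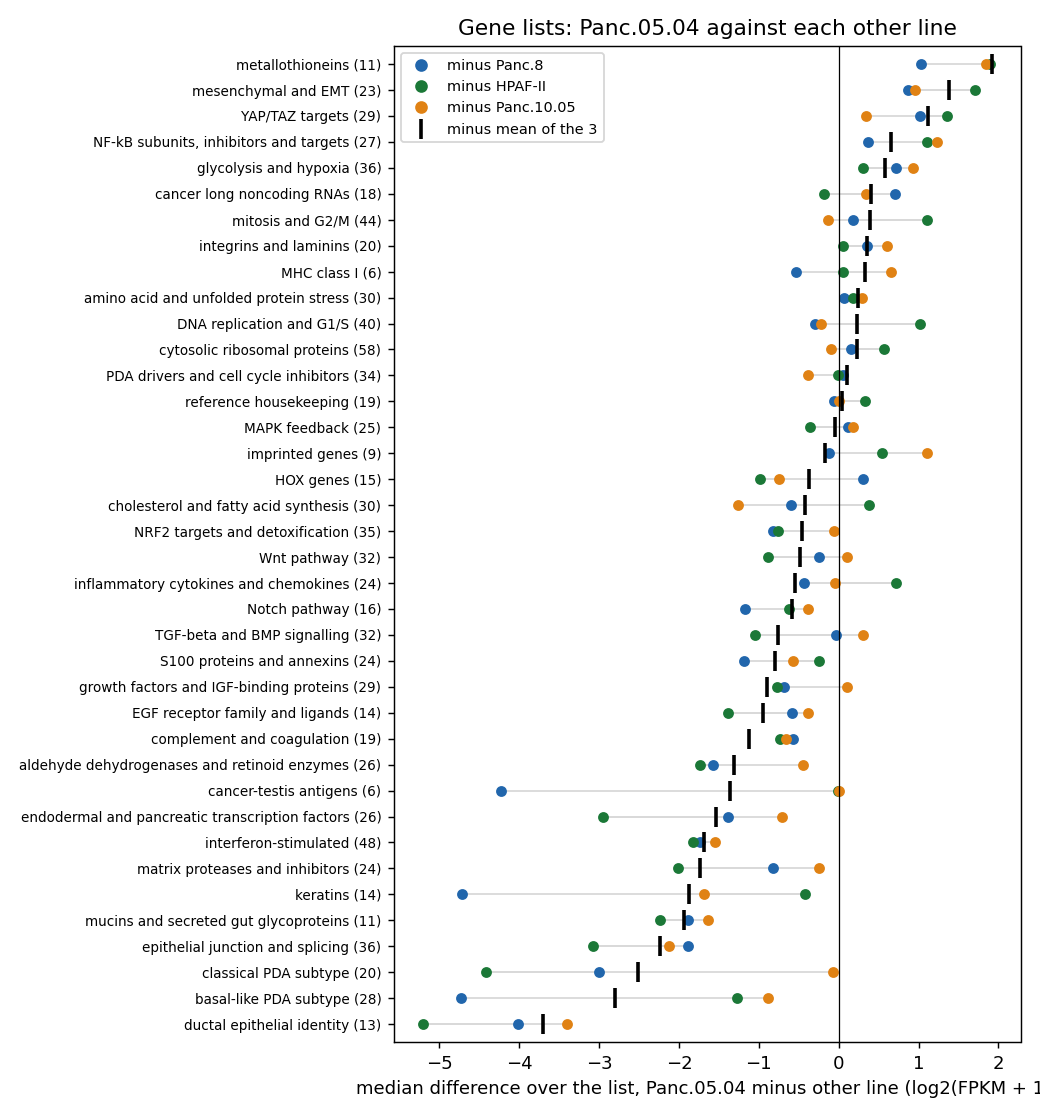
Median difference on log2(FPKM + 1) between Panc.05.04 and each other line for the lists with at least 5 tested members, the number of which stands in brackets. Points show each line, black bars the median against the mean of the 3 lines. Ductal, junction, mucin and interferon lists were negative against each line, and metallothionein, mesenchymal, YAP/TAZ and NF-kB lists positive against each.

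Interferon-stimulated genes had a negative median against every line. Of 48 tested, 30 were below all 6 and 1 above, where 22.5% and 17.5% of all rows were, and the median difference was -1.68, with -1.73 against Panc.8, -1.82 against HPAF-II and -1.55 against Panc.10.05. It was -1.11 in the control siRNA libraries alone and -2.33 in the PDX1 siRNA libraries alone. IFITM1, which blocks virus entry, had 1.59 and 0.736 FPKM in Panc.05.04, 202 and 1448 FPKM in Panc.8, 1879 and 2471 FPKM in HPAF-II and 229 and 855 FPKM in Panc.10.05. BST2, the tether of budding viruses, had 0.19 and 0.0723 FPKM against 70.7 to 405 FPKM, and IFI6 had 28.98 and 17.9 FPKM against 178 to 3783 FPKM. OAS1, a sensor enzyme of double-stranded RNA, had 3.21 and 1.97 FPKM against 29.2 to 289 FPKM. The factors that carry the signal were below too: STAT2 had 10.4 and 9.55 FPKM against 12.7 to 49.2 FPKM, and IRF9 had 11.9 and 7.17 FPKM against 21.9 to 92.6 FPKM. Both lay closer to the other lines than IFITM1 and BST2 did. IFITM2 was the 1 member above, with 954 and 613 FPKM against 34.7 to 295 FPKM, and IFITM3 had 2818 and 1690.0 FPKM against 740.5 to 2491 FPKM, so its control siRNA library was above all 6 others and the PDX1 siRNA library was not; these paralogs are close in sequence, and reads shared between them may be assigned to either. CD74, the invariant chain of MHC class II, had 0.217 and 0.261 FPKM against 1.57 to 389.5 FPKM. ERAP1, which trims peptides for MHC class I, was above, at 38.6 and 34.7 FPKM against 12.8 to 27.7 FPKM, and PSMB10, an immunoproteasome subunit, was below, at 23.5 and 20.6 FPKM against 35.6 to 119.9 FPKM. Only 6 of 20 listed MHC class I genes and 5 of 15 class II genes had a row of their own.

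Genes of the NF-kB pathway had a positive median against every line, and inflammatory cytokines were mixed. Of 27 tested pathway genes, 9 were above all 6 and 1 below, where 17.5% and 22.5% of all rows were, with a median of 0.66. SOD2, a mitochondrial antioxidant enzyme, had 962 and 569 FPKM against 25.3 to 136 FPKM. ICAM1, an adhesion molecule, had 191 and 210.2 FPKM against 17.8 to 76.3 FPKM, and the subunit gene NFKB2 had 87.5 and 89.4 FPKM against 16.2 to 46.04 FPKM. LCN2, a siderophore-binding protein and the 1 member below, had 81.9 and 33.5 FPKM against 154 to 2975 FPKM. Of 24 tested cytokines and chemokines, 6 were above and 4 below, and the median was -0.55, with 0.72 against HPAF-II and -0.44 against Panc.8. That median turned to 0.25 without Panc.8 and to 0.27 in the control siRNA libraries alone. CSF3, which drives neutrophil production, had 40.2 and 18.4 FPKM against 0 to 4.02 FPKM. IL6 had 28.5 and 9.79 FPKM against 0 to 2.16 FPKM, and the chemokine CXCL2 had 53.05 and 40.2 FPKM against 1.29 to 8.74 FPKM. CXCL16 was below, at 5.28 and 7.73 FPKM against 24.6 to 71.9 FPKM.

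Targets of the coactivators YAP and TAZ also had a positive median against every line. Of 29 tested, 11 were above and 4 below, where 17.5% and 22.5% of all rows were, with a median of 1.12 and 1.02, 1.36 and 0.34 against Panc.8, HPAF-II and Panc.10.05. CTGF, a matricellular protein, had 107 and 234 FPKM in Panc.05.04, 1.83 and 1.85 FPKM in Panc.8, 4.17 and 4.02 FPKM in HPAF-II and 5.604 and 1.45 FPKM in Panc.10.05. CYR61, its relative, had 389 and 519 FPKM against 3.64 to 209 FPKM. F3, tissue factor, and TGFB2 went the other way, with 7.39 and 5.09 FPKM against 90.6 to 716 FPKM and 0.267 and 1.06 FPKM against 8.97 to 21.96 FPKM. TGFBI, a target of TGF-beta, was below, at 10.97 and 10.5 FPKM against 72.1 to 379 FPKM. The BMP targets ID1 and ID3 were below, at 61.05 and 48.9 FPKM against 108 to 791 FPKM and 0.532 and 0.692 FPKM against 4.06 to 146 FPKM. SMAD6, a BMP-induced inhibitor, had 0.242 and 0.04603 FPKM against 12.5 to 23.5 FPKM. Of 32 tested TGF-beta and BMP genes, 4 were above and 10 below, with a median of -0.76, and the sign was not the same against all lines (0.30 against Panc.10.05).

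Wnt ligands and antagonists were found on both sides. WNT5B had 29.9 and 31.6 FPKM against 0 to 5.57 FPKM, and LEF1, a nuclear effector, had 6.09 and 4.98 FPKM against 0.0498 to 1.36 FPKM. WNT7B had 0.606 and 1.53 FPKM against 45.3 to 63.9 FPKM, and WNT10A had 0.108 and 0.124 FPKM against 11.4 to 64.5 FPKM. DKK1, a secreted antagonist, had 0.742 and 0.988 FPKM against 41.3 to 84.7 FPKM, the reverse of DKK3. RNF43, which removes Wnt receptors and is often mutated in PDA, had 0.0111 and 0.0131 FPKM against 2.74 to 26.8 FPKM. Of 32 tested Wnt genes, 5 were above and 9 below, where 17.5% and 22.5% of all rows were, so the share above was near that of all rows. Of 14 tested genes of the EGF receptor family and its ligands, 7 were below and 0 above. ERBB3 had 0.922 and 0.799 FPKM against 15.7 to 77.6 FPKM, and the ligand AREG had 8.41 and 1.71 FPKM against 19.2 to 264 FPKM. MET, the hepatocyte growth factor receptor, was lower but high in level, at 57.2 and 61.6 FPKM against 82.2 to 200.3 FPKM.

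The list of metallothioneins, which bind zinc and copper, also held zinc transporters and MTF1. Its median difference of 1.92 was the highest of the lists with at least 5 tested members. Of its 11 tested genes, 6 were above and 2 below, where 17.5% and 22.5% of all rows were. MT2A had 6499 and 6274 FPKM in Panc.05.04, 306 and 841 FPKM in Panc.8, 27.2 and 31.8 FPKM in HPAF-II and 782 and 431 FPKM in Panc.10.05. MT1E had 1163 and 813 FPKM against 0.231 to 137 FPKM, and MT1F had 66.6 and 26.4 FPKM against 1.69 to 8.396 FPKM. MT1X, at 148 and 83.5 FPKM against 4.77 to 141 FPKM, lay on neither side. The same held for MT1M, at 0.261 and 0.301 FPKM against 0 to 5.07 FPKM. The zinc importer SLC39A14 had 89.01 and 92.4 FPKM against 19.4 to 31 FPKM, and the exporter SLC30A1 was below, at 15.7 and 11.8 FPKM against 17.9 to 50.1 FPKM. Metallothioneins are close in sequence, so reads may be shared between them.

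The list of glycolysis and hypoxia genes had a positive median against every line. Of its 36 tested genes, 15 were above and 4 below, where 17.5% and 22.5% of all rows were. Their median was 0.58. LDHA, lactate dehydrogenase A, had 1265 and 1197 FPKM against 274 to 653 FPKM, and HK1, hexokinase, had 105 and 116 FPKM against 18.5 to 56.3 FPKM. ENO2 had 73.3 and 71.2 FPKM against 2.04 to 31.3 FPKM. Some genes known as hypoxia markers were on the other side: CA9, a carbonic anhydrase, had 0.162 and 0.186 FPKM against 0.8403 to 270.2 FPKM, EGLN3, an oxygen sensor, had 1.46 and 1.96 FPKM against 14.4 to 169.7 FPKM, and VEGFA had 30.6 and 27.4 FPKM against 32.2 to 79.6 FPKM, all below. Genes of retinoid metabolism had a negative median. Of 26 tested aldehyde dehydrogenases and retinoid enzymes, 11 were below and 1 above, with a median of -1.31. ALDH1A3, which makes retinoic acid, had 10.1 and 8.55 FPKM against 154 to 553 FPKM, and CRABP2, which binds it, had 5.55 and 4.44 FPKM against 84.7 to 566 FPKM.

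Integrins and laminins were found on both sides. Of 20 tested, 7 were above and 6 below, where 17.5% and 22.5% of all rows were. Their median was 0.35. ITGA5, the fibronectin receptor subunit, had 92.4 and 91.2 FPKM against 2.75 to 37.3 FPKM, and LAMB2 had 82.5 and 60.8 FPKM against 0.0153 to 25.4 FPKM. ITGB6, an epithelial integrin subunit, had 0.0244 and 0.0436 FPKM against 4.84 to 48.4 FPKM, and LAMB1 had 9.14 and 7.73 FPKM against 41.9 to 95.3 FPKM. Among proteases, MMP7, a matrix protease of epithelia, was listed at 0 in Panc.05.04 against 6.72 to 1666 FPKM. KLK10, a kallikrein, had 0.419 and 0.188 FPKM against 36.2 to 140.1 FPKM. Of 24 tested proteases and inhibitors, 9 were below and 1 above, with a median of -1.74.

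Among genes often altered in PDA, SMARCA4, the ATPase of the SWI/SNF remodeller, had 3.39 and 3.17 FPKM in Panc.05.04, 38.2 and 35.6 FPKM in Panc.8, 34.99 and 36.6 FPKM in HPAF-II and 37.2 and 29.6 FPKM in Panc.10.05. No other line came near the low values, and the difference was -3.08 ± 0.39 (SE). SMARCA2, the alternative ATPase, had 10.3 and 9.92 FPKM, within 1.397 to 14.1 FPKM. SMAD4, the common mediator of TGF-beta signals, had 0.0123 and 0 FPKM in Panc.05.04 and 0.0129 and 0.00717 FPKM in Panc.8, but 9.47 and 9.37 FPKM in HPAF-II and 7.54 and 9.001 FPKM in Panc.10.05. MAP2K4, a stress kinase, was listed at 0 in both Panc.05.04 libraries and was low in Panc.8 too, at 0.3497 and 0.482 FPKM. It had 8.22 and 10.1 FPKM in HPAF-II and 8.58 and 10.1 FPKM in Panc.10.05. CDKN2A was expressed, with 84.6 and 62.2 FPKM, and near 0 only in Panc.8, at 0.669 and 0.598 FPKM. Over 34 tested driver genes, 6 were above and 7 below, both shares near those of all rows, and the median was 0.10.

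Of 16 tested Notch pathway genes, 2 were above and 5 below, where 17.5% and 22.5% of all rows were. JAG1, a Notch ligand, had 2.99 and 2.33 FPKM in Panc.05.04 and 2.64 and 2.49 FPKM in Panc.10.05, against 99.3 and 91.5 FPKM in Panc.8 and 27.3 and 29.1 FPKM in HPAF-II. LFNG, a glycosyltransferase that modifies Notch receptors, had 0.696 and 0.435 FPKM against 4.8 to 20.5 FPKM, and the Notch-induced inhibitor NRARP had 2.61 and 4.28 FPKM against 7.04 to 61.5 FPKM. Of 25 tested genes of MAPK feedback, 4 were above and 7 below, and their median of -0.04 turned to 0.05 with libraries scaled to the same sum and 0.07 after quantile normalization. Members lay on both sides, with the ETS factor ETV5 at 31.7 and 37.2 FPKM against 2.25 to 19.7 FPKM and the early response factor FOS at 1.996 and 0.976 FPKM against 7.54 to 37.99 FPKM.

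Of 30 tested genes of cholesterol and fatty acid synthesis, 3 were above and 6 below, the latter a share near the 22.5% of all rows. INSIG1, which holds back sterol synthesis, had 18.9 and 19.6 FPKM against 32.1 to 151 FPKM. The desaturase genes FADS1 and FADS2 were above, at 69.6 and 49.5 FPKM against 0.129 to 38.7 FPKM and 12.2 and 10.8 FPKM against 0.0571 to 7.96 FPKM, where the low values were those of HPAF-II. Of 35 tested NRF2 targets and detoxification genes, 6 were above and 11 below, with a median of -0.46, and the share above was near the 17.5% of all rows. CYP2S1, a cytochrome P450, had 1.46 and 1.67 FPKM against 8.21 to 61.9 FPKM. Of 24 tested S100 proteins and annexins, 1 was above and 7 below. The member above was ANXA6, a membrane-binding annexin, with 47 and 38.95 FPKM against 1.05 to 13.7 FPKM, while S100P, often high in PDA, had 0.131 and 0.301 FPKM in Panc.05.04 and 0 and 0.273 FPKM in Panc.10.05, far under the 276 and 372 FPKM of Panc.8 and the 392 and 385 FPKM of HPAF-II. Of 29 tested growth factors, their receptors and IGF-binding proteins, 6 were above and 9 below, and NRP1, a coreceptor of VEGF and semaphorins, had 0.0939 and 0.234 FPKM against 9.59 to 78.2 FPKM.

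Of 6 tested cancer-testis antigens, 0 were above and 0 below, where 17.5% and 22.5% of all rows were. MAGEA3 had 0.0326 and 0 FPKM in Panc.05.04, 82.2 and 79.5 FPKM in Panc.8 and was listed at 0 in the 4 libraries of HPAF-II and Panc.10.05, so this list separated Panc.8 from the rest. MAGEA3 and MAGEA6 are near-identical copies and may share reads. Of 9 tested imprinted genes, 3 were above and 3 below. MEST, a hydrolase gene on chromosome 7, had 7.58 and 10.7 FPKM against 27.1 to 91.8 FPKM, and SGCE, which encodes a sarcoglycan and lies on the same chromosome, had 17.9 and 14.5 FPKM against 0 to 11.5 FPKM. Of 18 tested long noncoding RNAs known from cancer, 5 were above and 3 below: MIR100HG had 21.1 and 15.2 FPKM against 0.5405 to 6.52 FPKM, and CCAT1 was listed at 0 against 4.52 to 25.8 FPKM.

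Lists of basic cell functions had medians nearer 0. Of 19 tested housekeeping genes, 4 were above and 2 below, with a median of 0.04 (0.14 with libraries scaled to the same sum and 0.15 after quantile normalization). Of 44 tested mitotic genes, 3 were above and 0 below, and of 40 tested replication genes, 3 were above and 3 below. Their medians of 0.39 and 0.23 were 1.10 and 1.02 against HPAF-II, 0.18 and -0.29 against Panc.8 and -0.13 and -0.22 against Panc.10.05. Of 58 tested cytosolic ribosomal proteins, 16 were above and 3 below, where 17.5% and 22.5% of all rows were, with a median of 0.23.

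The position of genes was not used by the rule, and the members were not spread evenly over chromosomes. On chromosome 7, 48.3% of 609 tested rows were below and 4.93% above, against 22.5% and 17.5% of all rows. The median difference there was -0.57 against Panc.8, -0.62 against HPAF-II and -0.68 against Panc.10.05. Chromosome 15 had 44.4% of 374 rows below and 4.01% above, and chromosome X had 40.4% of 381 below and 6.56% above. On chromosomes 20, 14 and 22, 33.5%, 32.5% and 31.0% of the rows were below. The highest share above was on chromosome 13, with 33.5% of 215 rows above and 5.12% below, but its median was 0.04 against Panc.8 and 0.72 and 0.67 against HPAF-II and Panc.10.05. Chromosomes 6, 16, 3 and 5 followed with 31.2%, 30.1%, 29.0% and 28.8% above. Neighbouring rows are not independent, and copy number was not measured here.

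**Figure D4:**
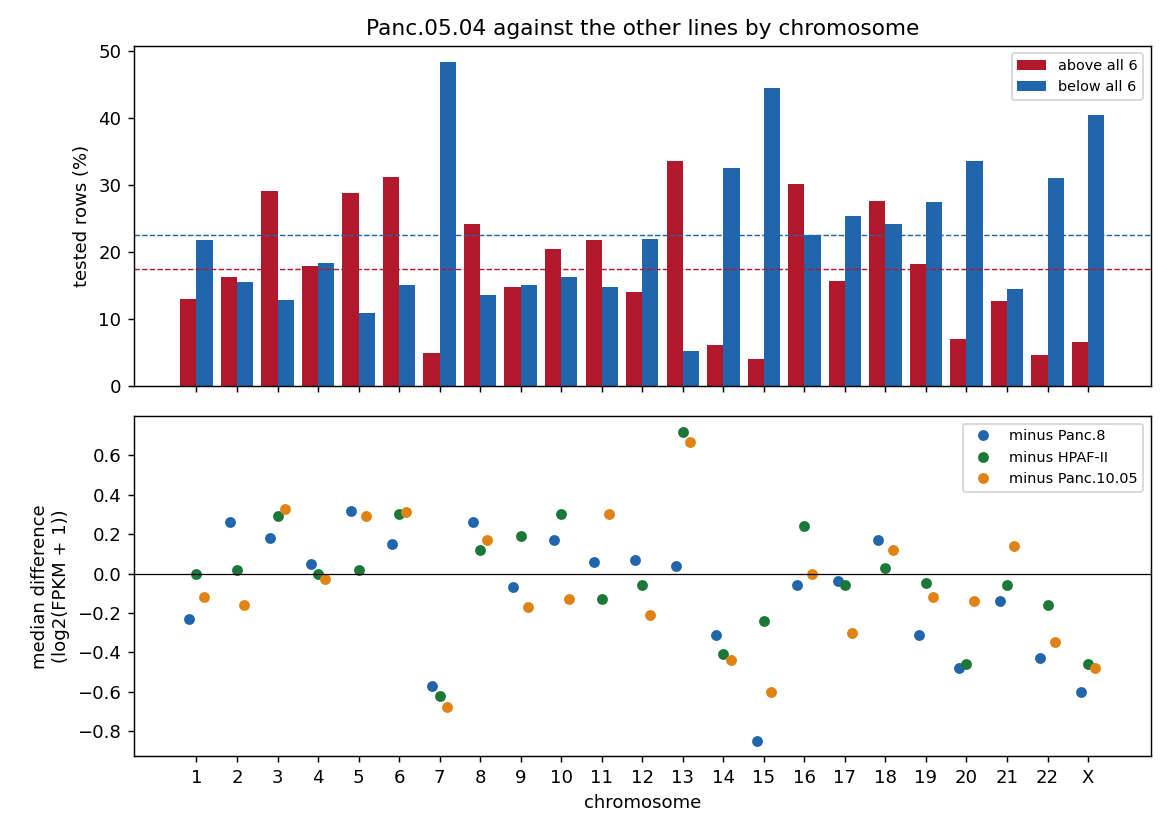
Top, share of tested rows above (red) and below (blue) all 6 other libraries by chromosome, with dashed lines at the shares of all rows, 17.5% and 22.5%. Bottom, median difference on log2(FPKM + 1) between Panc.05.04 and each other line. Chromosomes 7, 14, 15, 17, 19, 20, 22 and X were negative against each line, with -0.04 against Panc.8 on chromosome 17 and -0.05 against HPAF-II on chromosome 19.

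Rows on the same side also formed runs of neighbours. There were 28 runs of at least 5 neighbouring tested rows above and 33 below. The longest, of 31 rows above, lay on chromosome 19 (chr19:36313061-38229714, build hg38) and held 24 rows with a ZNF, ZFP or HKR symbol, which name zinc-finger proteins, most of them DNA-binding repressors. Its differences ran from 0.61 to 3.93, with a median of 1.51. ZFP82 had 12.3 and 16.4 FPKM against 0 to 0.0178 FPKM, and ZNF569 had 7.87 and 8.66 FPKM against 0 to 0.141 FPKM. ZNF260 showed a smaller difference, at 14.8 and 18.5 FPKM against 6.05 to 8.62 FPKM. A second run of 15 rows followed on the same arm (chr19:38878555-39409412), with a median of 1.77. It held PAK4, a kinase of cytoskeleton signals, at 126 and 119 FPKM against 41.7 to 52.3 FPKM, FBXO17 and FBXO27, substrate receptors of a ubiquitin ligase, at 62.05 and 68.8 FPKM and 35.5 and 40.5 FPKM, and the gene of interferon lambda IFNL1 at 17.2 and 6.603 FPKM against 0 to 2.26 FPKM. Over the stretch that spans both runs, 51 of 59 tested rows were above and 1, the potassium channel gene KCNK6, was below. The bounds of the stretch were set by rows that were above, so this count describes it and compares it with nothing. Of all 406 tested rows with a zinc-finger symbol, 94 were above (23.2%) and 97 below (23.9%), against 17.5% and 22.5% of all rows. The 94 include all 25 of the stretch, whose bounds were set as said. On the rest of chromosome 19, 18 of 154 were above (11.7%) and 45 below (29.2%). On other chromosomes, 51 of 227 were above (22.5%) and 52 below (22.9%).

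**Figure D5:**
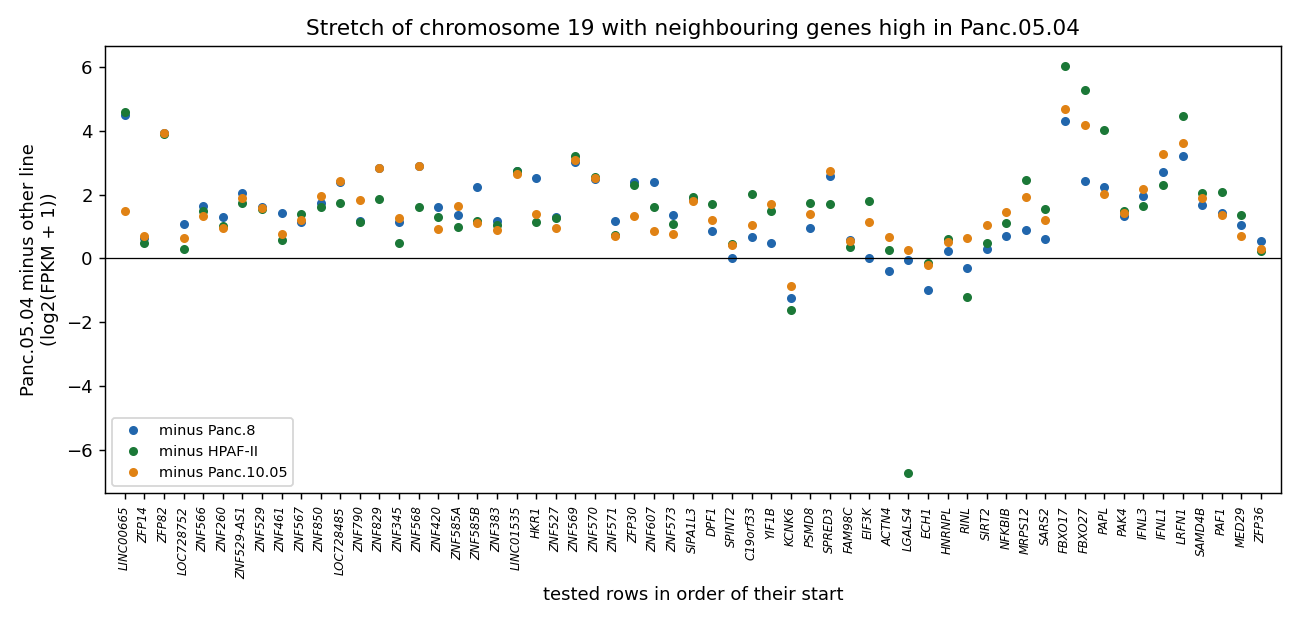
Difference on log2(FPKM + 1) between Panc.05.04 and each other line for the 59 tested rows of the chromosome 19 stretch, in order of their start. Nearly all points lie above 0, with KCNK6 below 0 against each line and LGALS4 far below 0 against HPAF-II.

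The longest run below, of 12 rows, lay on chromosome 14 (chr14:23511760-24166566), with a median of -1.37. PCK2, a mitochondrial enzyme of gluconeogenesis, had 1.32 and 1.24 FPKM against 5.06 to 62.95 FPKM. PSME1 and PSME2, subunits of the proteasome activator that interferon induces, had 63.1 and 49.7 FPKM and 43 and 43.4 FPKM against 88.1 to 279.7 FPKM and 71.9 to 187 FPKM. IRF9, given above, lies in the same run. It also held DHRS2, with 0.0674 and 0.308 FPKM against 1.52 to 62.5 FPKM, and DHRS4 with its antisense RNA, whose reads cannot be told apart without strand.

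Within Panc.05.04, 1 library per siRNA allows no test, and the difference between them was small beside that between lines. Of the 2124 rows above, 8 had at least 2 times the control siRNA value with the PDX1 siRNA and 16 had 2 times less (1.13%), on the scale of FPKM + 1. Of the 2730 rows below, 1 was higher and 7 lower (0.293%), and of the 7255 rows on neither side 0.979% were either. The 442 rows above by a gap of at least 1 had 3 higher and 9 lower (2.71%). This scale understates differences at low FPKM, which bears on the rows below. As examples from the 24 rows above with such a difference, CCL20, a chemokine, had 131 and 42.5 FPKM, and TNFAIP6, a hyaluronan-binding protein, had 21.03 and 5.17 FPKM. In the other direction, SAA1, an acute-phase protein, had 136 and 390.1 FPKM, and HMOX1, heme oxygenase, had 80.3 and 194 FPKM. Each was above all 6 other libraries under both siRNAs, as the rule that chose these rows requires.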

How the data were processed

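RNA-seq of 8 libraries, 1 per cell line and siRNA, was used. The authors deposited a table per line in the layout of Cuffdiff, per the file headers, with 1 FPKM column per siRNA. The tools TopHat2 (version 2), Cufflinks and Cuffdiff and build hg38 are named in the submitters' processing notes, without settings or annotation. No count model suits FPKM, and a level set across tables carries the limit that their common scaling is unknown. Depth is unknown, so no counting interval is given. The p-values and other statistics in those tables compare 2 libraries and were not used.

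Rows were joined over the tables by their identifier; 24156 of 28520 had a symbol of their own. After leaving out 19 rows marked as having too much data, the 12109 rows with a mean FPKM of at least 1 were kept and put on log2(FPKM + 1), with a pseudocount of 1. A row high in a single line can pass this filter through that line alone, which bears on the counts of rows above. The 2 libraries of each line were averaged, and Panc.05.04 was fitted against the 3 other lines with limma 3.58.1 in R 4.3.3 (eBayes with trend, Benjamini-Hochberg over the kept rows, 2 residual and 2.418 prior degrees of freedom). The fit was also run on simulated data with 200 shifted genes, where every line had the spread of the 3 other lines. That run cannot show if Panc.05.04 varies as the other lines do. Counts of rows above or below, list medians, chromosomes and runs are descriptions with no test. Nothing in the labels says that the 2 libraries of a line came from separate cultures. Table starts were read as counted from 0, and 1 was added. Promoters are RefSeq's, on GRCh38.p14. Python 3.11.15, numpy 2.4.6, pandas 2.3.3 and matplotlib 3.10.9 were used.

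The lines, lists and rules were chosen with earlier results of these data known. By rule, the text names PDX1, the 20 protein-coding genes with the largest gap on each side, 6 long noncoding RNAs per side, up to 4 members of each of 44 lists with the largest difference, the genes of the 3 longest runs and the genes next to the threshold. Other list members, FOXL2 and the genes named for their difference between siRNAs were chosen after their values were seen. XIST and genes of chromosome Y were left out, and some genes that the rule names are not reported here.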

Additional observations from a re-analysis of the deposited data

How the results depend on the processing

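The line-mean limma counts were 0 higher and 0 lower as reported, and stayed 0 and 0 with libraries scaled to the same sum, after quantile normalization, with the control or the PDX1 siRNA libraries alone, without any one of the other lines and without the trend in eBayes. They became 0 and 8 with a pseudocount of 0.1, 275 and 20 with no filter on low values, 0 and 7 with a mean FPKM of at least 5, and 3397 and 4397 with the 8 libraries and terms for line and siRNA. The last fit takes the spread between the 2 libraries of a line as its error; the cause of the other changes was not tested.

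Rows above all 6 others numbered 2124 and became 3201 with the PDX1 siRNA libraries alone, where only 1 library per line has to be passed. Those above by a gap of at least 1 numbered 442 and became 248 with a mean FPKM of at least 5, where fewer rows are tested. Leaving out 1 other line at a time gave 2703 to 3061 rows above, 3566 to 3665 below, and 574 to 660 and 682 to 876 by the gap. Rows below by the gap, 503 as reported, were 756 without Panc.8 and 876 without Panc.10.05. The labels give no replicate numbers; the libraries pair over lines by siRNA alone, and the fit of 8 libraries is the one that blocks on it.

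Of 179 named genes, 5 differences changed sign when a line was left out: the range over the 3 lines left out was -0.40 to 1.80 for ERAP2 and -0.07 to 2.12 for PHGDH, lowest without Panc.10.05, -3.15 to 0.02 for MAGEA3 and -2.38 to 0.00 for MAGEA1, highest without Panc.8, and -0.98 to 0.44 for PDX1, highest without HPAF-II. None of these 179, which are PDX1 and the genes picked by gap or by rank in a list, changed sign under another pseudocount or scaling. Other genes in the text were not put through these alternatives. Of 43 list medians, 4 moved beyond their spread over lines with a pseudocount of 0.1, 4 with the control and 1 with the PDX1 siRNA libraries alone, 1 under each scaling, and 5, 3 and 5 without Panc.8, HPAF-II and Panc.10.05. With a pseudocount of 0.1 the median was -5.67 for ductal genes (-3.70 as reported), -3.95 for mucins (-1.93), -3.44 for keratins (-1.87), -3.39 for proteases (-1.74), -4.17 for classical genes (-2.51) and -2.18 for aldehyde dehydrogenases and retinoid enzymes (-1.31). With no read counts, the depth that limits low FPKM values is unknown.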

Other observations

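Other lists that the text above does not describe held members on both sides. Of 30 tested genes of amino acid and unfolded protein stress, 7 were above all 6 other libraries and 2 below. Among all tested rows these shares were 17.5% and 22.5%. The list median was 0.24 (0.05 without Panc.10.05). The chaperone gene HSP90B1 had 749.8 and 680.3 FPKM in Panc.05.04 against 208 to 346 FPKM, HSPA5 had 428 and 425 FPKM against 116 to 298 FPKM, and HERPUD1, of endoplasmic reticulum degradation, had 91.1 and 93.2 FPKM against 23.6 to 30.8 FPKM. Of 19 tested complement and coagulation genes, 2 were above and 6 below. CD59, which blocks the terminal complement complex, had 254 and 225 FPKM against 29.9 to 82.5 FPKM. Of 15 tested HOX genes, 1 was above and 2 below: HOXB2 had 16.3 and 15.03 FPKM against 0.355 to 1.17 FPKM, and HOXA3 had 2.49 and 3.95 FPKM against 22.4 to 55.7 FPKM.

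LDHB, a second lactate dehydrogenase subunit, was listed at 0 in both libraries of Panc.05.04 and of Panc.10.05, and had 407 and 356 FPKM in Panc.8 and 219 and 201 FPKM in HPAF-II. The detoxification genes GSTM1 and GSTT1, which many human genomes lack, were at 5.54 and 4.88 FPKM and 16.8 and 13.5 FPKM in Panc.05.04 and at most 0.0473 and 0.348 FPKM in the other lines.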
